A study of Mus musculus with 4 samples.

Results

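DNA replication and G1/S genes encode the factors that load and fire replication origins, copy the DNA, supply nucleotides, repackage the new chromatin and switch a cell from G1 into S phase. The set was a list of 44 named genes, with 1 probe set used per gene, the brightest on average. Of the 44 genes, 43 had a named probe set and all 43 passed the level filter, among 13366 genes tested in all. Chaf1a was not analysed here.

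Origins are licensed in G1 when the origin recognition complex, with Cdc6 and Cdt1, loads the ring-shaped Mcm2 to Mcm7 helicase onto DNA. Entry into S phase follows when cyclin E and its kinase release E2F factors from the retinoblastoma protein, and E2F then drives many of the genes described here. In dividing neural progenitors these transcripts are abundant, and they are widely used as a readout of cycling cells.

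The arrays held RNA from a tumorigenic subline, called glioma-initiating cell-like (GIC), and a nontumorigenic subline (non-GIC), with 2 arrays each. Both came from neural stem cells of the telencephalon of p53-/- C57BL/6 embryos at day 14.5, grown as floating spheres in serum-free medium with bFGF, PDGF, insulin and forskolin. Both carry the plasmids pCMS-EGFP-HRasL61, for GFP and an activated HRas, and pBabe-neo, and were selected in neomycin and sorted for GFP. No array of cells without the oncogene was included, so every comparison here is between transformed sublines that also lack p53. Each group is 1 subline, and whether its arrays came from separate cultures is not stated. The p-values therefore reflect only the spread among these arrays, which may be technical. The p53 and HRas transcripts were not analysed here.

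Values are log2 signals, so a difference of 1 is a 2-fold difference, and the number of arrays limits their precision. Array medians lay between 6.58 and 6.63, and over the genes tested Pearson's r was 0.978 and 0.976 within the sublines and 0.918 to 0.954 between them, a description across genes, which are not independent replicates. Of the neural stem and progenitor markers, 11 of 13 were tested, and their summed log2 signal was 102 and 106 in non-GIC, and 101 and 99.2 in GIC. Of these 11 markers, 8 had a lower mean in GIC and 3 a higher one. The limma threshold was passed by 2 of them, both lower (0.688% of all genes passed as lower). These counts did not leave out Fabp7, which passed the level filter through its non-GIC arrays alone, so they are no support for lower progenitor markers in GIC. The progenitor filament Nes fell in GIC (log2 fold change -2.07, limma adjusted p = 0.0459). The radial glial Fabp7 had 6.58 and 6.89 in non-GIC and an identical 5.23 on each GIC array, below the filter level of 5.97, so no fold or test is given for it. Sox2 had -0.90 and Vim -0.01, while Sox9 had 1.47, Notch1 0.10 and Slc1a3 0.01 (none passed), and Prom1 lay below the level filter.

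Of the leukocyte markers, Ptprc, Aif1, Cx3cr1 and Itgam lay below the filter level on at least 3 arrays, while Csf1r (-0.30) and Cd68 (0.53) lay above it on all 4. Of the endothelial markers, Pecam1, Cdh5 and Tek lay below it on at least 3 arrays, while Kdr (-0.06) and Cldn5 (-0.16) lay above it on all 4. None of these 4 tested genes passed the limma threshold, and Cd68 had an unadjusted limma p of 0.0312. Of 7 neuron markers 5 were tested (3 lower and 2 higher in GIC), from -0.25 for Gad1 to 1.15 for Tubb3. On each GIC array 3 of these 5 lay above the filter level. Of 6 astrocyte markers 5 were tested (4 lower and 1 higher), and of 6 oligodendrocyte markers 3 (1 lower and 2 higher). No gene of these lists passed the limma threshold.

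Promoter sequence is shown first because E2F drives many of these genes. The genes were listed by name, but for the same reason a higher share of E2F-type letters among them is no independent finding. All spellings of the E2F consensus were searched on both strands, namely TTTCCCGC, TTTCGCGC, TTTGCCGC and TTTGGCGC, in RefSeq windows from 250 bases before to 50 bases after each annotated start (GRCm38.p6). Of the 44 genes, 36 had such a window, and 14 of these genes held at least 1 match. Over all promoters in the table, 2.26% of 32851 windows held one, against 33.3% of the 42 windows of these genes. TTTGCCGC was found in none of the 36 genes. The CCAAT box, which NF-Y binds, was found in 61.1% of the 36 genes and in 41.1% of all 27025 genes in the table. A match is a run of letters and not a measured binding site.

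The 160 bases before the start are printed below for Cdc6, Mcm5, Mcm6, Orc1 and Pola1, whose matches lie there. They are also printed for E2f1, a member higher in GIC, whose only window searched held no match. Whether that window is the main E2f1 promoter was not checked, so it does not show that E2f1 lacks E2F sites. Capitals mark the E2F-type letters, read on the strand of the gene.
Cdc6 promoter, chr11:98907991-98908150, plus strand: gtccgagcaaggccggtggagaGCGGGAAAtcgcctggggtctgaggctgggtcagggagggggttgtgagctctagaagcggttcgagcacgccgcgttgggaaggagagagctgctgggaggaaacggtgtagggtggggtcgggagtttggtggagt
Mcm5 promoter, chr8:75109349-75109508, plus strand: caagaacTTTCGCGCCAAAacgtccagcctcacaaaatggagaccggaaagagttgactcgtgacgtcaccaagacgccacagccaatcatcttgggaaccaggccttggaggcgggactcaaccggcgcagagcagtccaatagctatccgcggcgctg
Mcm6 promoter, chr1:128359706-128359865, minus strand: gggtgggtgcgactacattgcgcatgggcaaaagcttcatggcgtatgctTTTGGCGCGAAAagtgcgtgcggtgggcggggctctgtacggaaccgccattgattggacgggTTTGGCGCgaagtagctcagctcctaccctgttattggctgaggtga
Orc1 promoter, chr4:108579294-108579453, plus strand: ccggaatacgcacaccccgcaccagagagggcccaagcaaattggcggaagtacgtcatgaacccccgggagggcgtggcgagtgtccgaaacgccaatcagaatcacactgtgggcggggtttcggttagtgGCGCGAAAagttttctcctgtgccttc
Pola1 promoter, chrX:93632156-93632315, minus strand: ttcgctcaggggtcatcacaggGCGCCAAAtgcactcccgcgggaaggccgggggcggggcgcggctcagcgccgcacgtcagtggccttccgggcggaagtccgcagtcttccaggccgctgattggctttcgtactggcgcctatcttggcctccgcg
E2f1 promoter, chr2:154569427-154569586, minus strand: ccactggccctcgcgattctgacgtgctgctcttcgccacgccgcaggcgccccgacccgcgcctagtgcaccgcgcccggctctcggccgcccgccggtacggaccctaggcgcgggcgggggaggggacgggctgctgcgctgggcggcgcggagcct

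In the Mcm5 window and at the upstream place in the Mcm6 window, matches on opposite strands overlap in 1 stretch. Mcm6 also holds a match at position -47 from the start. The match of Cdt1, the member with the largest difference, lies 33 bases after its start and outside the printed stretch. The 14 genes with a match had a median log2 fold change of -0.73 (range -1.51 to -0.23) and the 21 analysed genes without one had -0.47 (range -1.25 to 0.50). These ranges overlap, and the difference was not tested.

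Most replication and G1/S genes had lower means in GIC, none passed the test, and the size of the difference depended on the array. Of 43 members, 40 had a lower mean in GIC (51.5% of all genes tested did) and 3 a higher one, E2f1, Gins1 and Rfc2. The median log2 fold change was -0.57, against -0.01 over all genes tested. With limma, 0 members passed the adjusted threshold of 0.05 in either direction, where 1.92% of all genes passed (0.688% lower and 1.23% higher), and at an unadjusted p under 0.05 there were 12 lower members (8.1% of all genes) and 0 higher ones (9.75%). The count of called members was also 0 with eBayes run without an intensity trend or robustly. In 7 members the mean was at least 2-fold lower (2.26% of all genes).

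The GIC arrays did not carry this difference equally. GIC replicate 1 was the lowest of the 4 arrays in 40 of 43 members, which was so for 30.7% of all genes. GIC replicate 2 lay below both non-GIC arrays in 25 members (36.2% of all genes), above both in 7 (36.5%), namely E2f1, Ccne2, Orc1, Gins1, Prim1, Rfc2 and Slbp, and among them in the other 11. Against the non-GIC mean, the median difference was -0.84 for GIC replicate 1 and -0.21 for GIC replicate 2. The GIC and non-GIC arrays did not overlap, with GIC lower, in 25 members (24.9% of all genes). For any 1 gene, 2 arrays against 2 allow an exact two-sided permutation p of 0.333 at the smallest. Without GIC replicate 1, 30 members were lower and the median was -0.21, and without GIC replicate 2, 41 were lower and the median was -0.84.

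**Figure D1:**
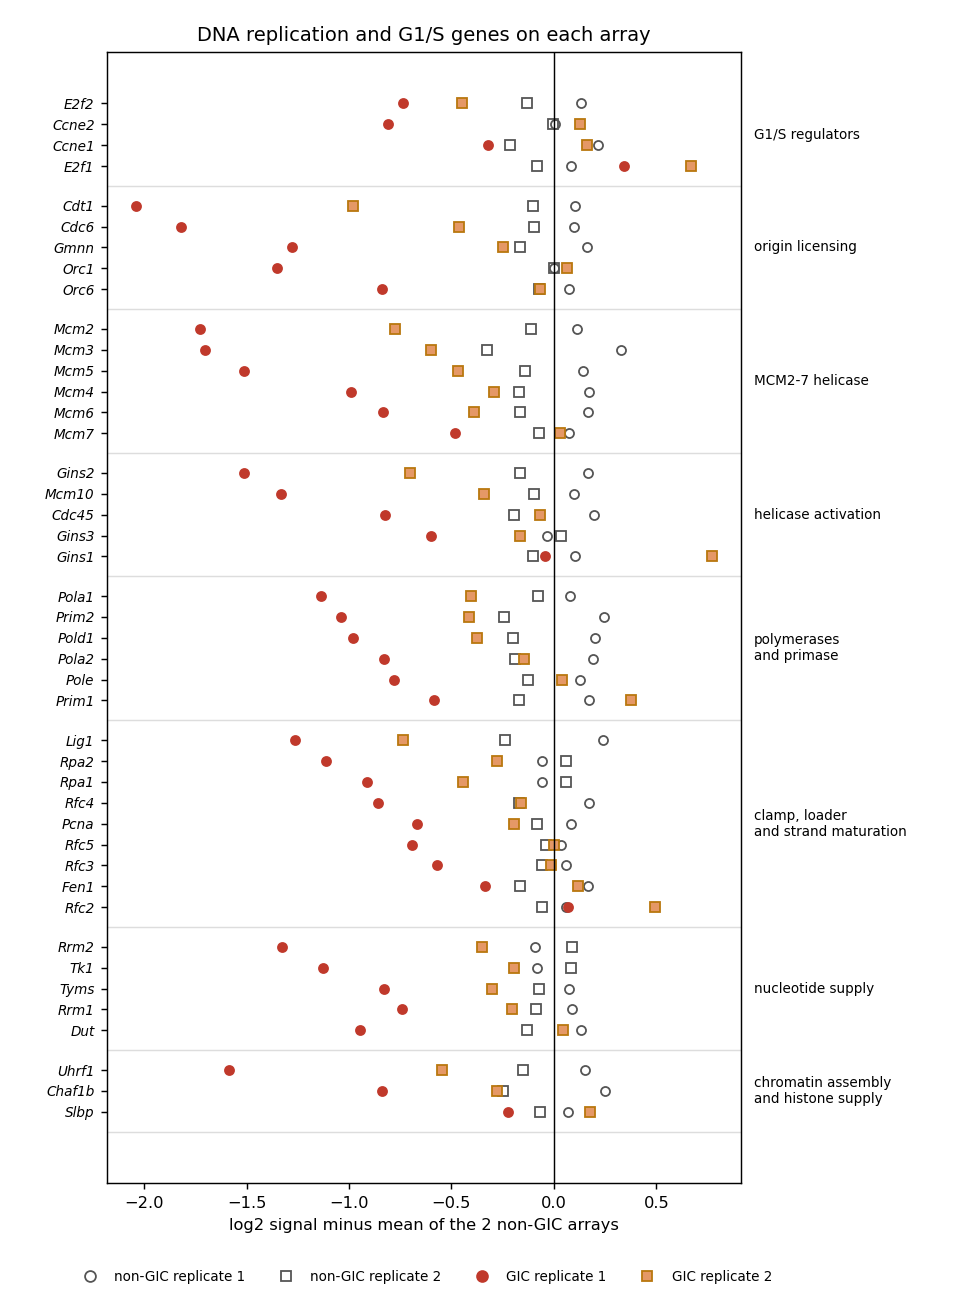
Log2 signal of each of 43 members on each array, minus the mean of the 2 non-GIC arrays of that gene, grouped by role; open symbols are non-GIC and filled symbols GIC. The filled circle, GIC replicate 1, is the leftmost point in 40 of 43 genes, and the filled square, GIC replicate 2, lies near the open symbols in most of them.

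Measures of RNA quality and of other cell types are given beside this, and their part in the result was not tested. The signal of the pyruvate carboxylase control at the 3' end minus that at the 5' end was 0.42 and 0.47 in non-GIC, against 0.72 for GIC replicate 1 and 0.51 for GIC replicate 2. For actin the difference lay between 0.09 and 0.12 on all 4 arrays, and for Gapdh it was -0.18 and -0.22 in non-GIC and -0.31 and -0.29 in GIC. For the transferrin receptor it was 0.97 and 0.89 in non-GIC and 0.94 and 0.84 in GIC, and for 18S RNA 0.68 and 0.07 in non-GIC and 0.25 and 0.47 in GIC. Of 7 mural and fibroblast markers, 5 were tested, with a summed log2 signal of 52.0 and 51.9 in non-GIC, 53.7 for GIC replicate 1 and 49.0 for GIC replicate 2, while Rgs5 and Lum lay below the filter. GIC replicate 2 was the array farther from non-GIC in this sum, and single markers went both ways. By the median over the 5 tested markers GIC replicate 1 was the farther array, at 0.50 from the non-GIC mean, against -0.04 for GIC replicate 2. The collagen gene Col1a1 had 13.84 and 14.57 in non-GIC and 13.59 and 10.70 in GIC (-2.06), and Col1a2 had 11.46 and 9.28 in non-GIC and 11.55 and 11.72 in GIC (1.26). In RNA from whole cultures, fewer cells in S phase and less of a transcript per cell cannot be told apart.

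**Figure D2:**
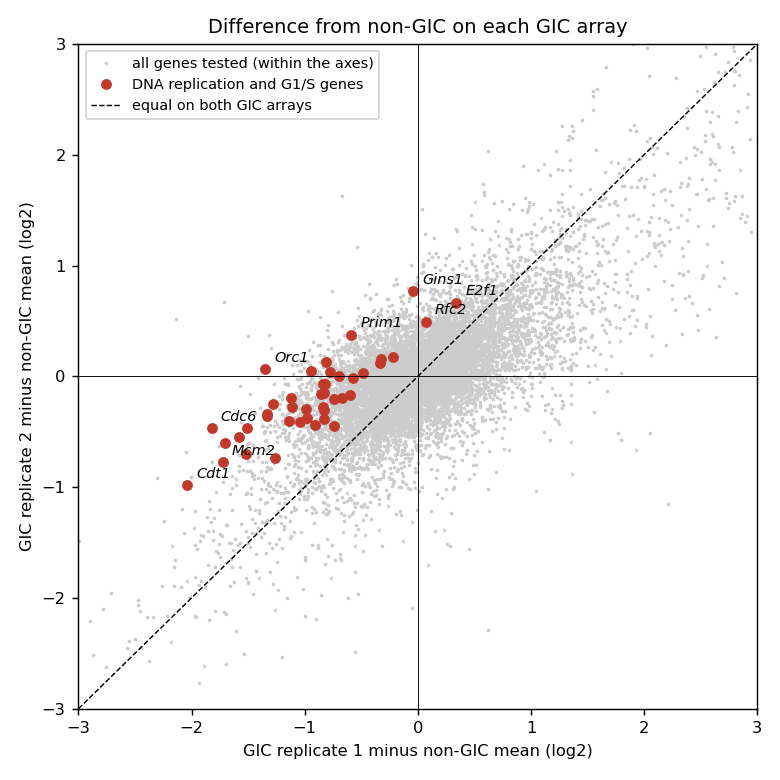
Each point is a gene; the x axis is GIC replicate 1 and the y axis GIC replicate 2, both minus the mean of the 2 non-GIC arrays (log2), with all tested genes in grey and the members in red. Every member lies above the dashed line of equal values, and the medians of the members are -0.84 on the x axis and -0.21 on the y axis.

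Origin licensing factors held the member with the largest difference. Cdt1, which brings the helicase to origins, had signals of 12.70 and 12.49 in non-GIC (replicates 1 and 2, as below) and 10.56 and 11.61 in GIC. Both GIC arrays were below both non-GIC arrays, and replicate 1 was the lower of them. The mean was 2.85-fold lower (log2 fold change -1.51, SE 0.38, limma adjusted p = 0.149). The log2 fold change was -0.98 without GIC replicate 1 and -2.04 without GIC replicate 2, each resting on 1 GIC array. Cdc6, the loading ATPase, had 10.38 and 10.18 in non-GIC and 8.46 and 9.82 in GIC, a log2 fold change of -1.14 with a 95% confidence interval from -2.38 to 0.09. Geminin, Gmnn, which inhibits Cdt1, had 11.05 and 10.73 in non-GIC and 9.61 and 10.64 in GIC (log2 fold change -0.77). In Cdc6 and Gmnn the groups did not overlap, but GIC replicate 2 lay nearer to non-GIC than to GIC replicate 1. For the member subunits of the origin recognition complex, Orc1 and Orc6, the GIC difference lay mainly on 1 array. Orc1 had 8.46 on each non-GIC array, 8.52 on GIC replicate 2 and 7.11 on GIC replicate 1, the widest gap between the GIC arrays among the members (-1.41). Orc6 had 11.27 and 11.13 in non-GIC, 11.13 on GIC replicate 2 and 10.36 on GIC replicate 1.

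All 6 subunits of the Mcm2 to Mcm7 ring, the motor of the replicative helicase, had a lower mean in GIC. Their median log2 fold change was -0.82, and their groups did not overlap except for Mcm7. Mcm2 had 11.64 and 11.42 in non-GIC and 9.81 and 10.76 in GIC, which is 2.38-fold lower (SE 0.35 on the log2 scale, limma adjusted p = 0.182). Mcm3 had 12.71 and 12.05 in non-GIC and 10.68 and 11.78 in GIC (log2 fold change -1.15). Mcm5 had 12.70 and 12.42 in non-GIC and 11.05 and 12.09 in GIC (log2 fold change -0.99). In all 3 genes the GIC arrays stood about a unit apart, with replicate 2 between replicate 1 and non-GIC. Mcm4 (-0.64) and Mcm6 (-0.61) differed less. Mcm7 had the smallest difference, -0.23 (95% confidence interval -0.78 to 0.33), with 12.98 on GIC replicate 2 against 13.02 and 12.87 in non-GIC. The subunits act as 1 complex, yet their differences ranged from -1.25 for Mcm2 to -0.23 for Mcm7; whether subunits differ from each other was not tested.

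Helicase activation factors were mixed. Gins2, a subunit of the GINS complex that joins the helicase at firing, had 11.05 and 10.72 in non-GIC and 9.37 and 10.18 in GIC, which is 2.16-fold lower (SE 0.32 on the log2 scale, limma adjusted p = 0.195). Mcm10, which helps the helicase to start, had 9.86 and 9.66 in non-GIC and 8.43 and 9.42 in GIC (log2 fold change -0.84). Both genes were lower on each GIC array than on any non-GIC array. Cdc45, the third part of the active helicase, had 9.62 and 9.23 in non-GIC and 8.60 and 9.36 in GIC, where replicate 2 lay within the non-GIC range. Gins3 had a log2 fold change of -0.38. Gins1, a subunit of the same complex as Gins2, was higher on GIC replicate 2 alone, at 10.66 against 9.84 on GIC replicate 1 and 9.98 and 9.78 in non-GIC (log2 fold change 0.36, limma adjusted p = 0.612). Subunits of GINS thus had opposite signs, with 95% confidence intervals of -1.96 to -0.26 for Gins2 and -0.46 to 1.19 for Gins1; this contrast was not tested.

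The polymerases and primase had lower means throughout, and none reached a 2-fold difference. Pola1, the catalytic subunit of DNA polymerase alpha, had 10.75 and 10.60 in non-GIC and 9.54 and 10.27 in GIC (log2 fold change -0.77, SE 0.29, limma adjusted p = 0.273). Prim2, the large primase subunit, had 10.87 and 10.38 in non-GIC and 9.58 and 10.21 in GIC (-0.73). Pold1, the catalytic subunit of polymerase delta, had 10.37 and 9.98 in non-GIC and 9.20 and 9.80 in GIC (-0.68). The groups did not overlap in these 3 genes. They did overlap for Pola2 (-0.49), for Pole, the catalytic subunit of polymerase epsilon (-0.37), and for Prim1, the small primase subunit. Prim1 had the highest signal of its 4 arrays on GIC replicate 2, 11.36, and the lowest on GIC replicate 1, 10.40, with 11.15 and 10.82 in non-GIC.

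Among sliding clamp, clamp loader and strand maturation genes, Lig1, Rpa2 and Rpa1 differed most. Lig1, the ligase that seals Okazaki fragments, had 11.58 and 11.11 in non-GIC and 10.08 and 10.61 in GIC, a difference of -1.0 on the log2 scale (SE 0.28, adjusted p = 0.176 by limma). Its difference was the least tied to 1 array among the members at least 2-fold lower, at -0.74 without GIC replicate 1 and -1.26 without GIC replicate 2. Subunits of the single-strand binding protein RPA followed. Rpa2 had 10.51 and 10.63 in non-GIC and 9.46 and 10.29 in GIC (-0.70), and Rpa1 had 12.89 and 13.01 in non-GIC and 12.04 and 12.51 in GIC (-0.68). In all 3 genes both GIC arrays lay below both non-GIC arrays. Pcna, the clamp itself, had a log2 fold change of -0.43. The loader subunits ranged from -0.51 for Rfc4 through -0.35 for Rfc5 and -0.29 for Rfc3 to 0.28 for Rfc2, which had 10.96 on GIC replicate 2 against 10.53 on GIC replicate 1 and 10.52 and 10.41 in non-GIC. The flap nuclease Fen1 had -0.11 (95% confidence interval -0.72 to 0.49).

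All 5 nucleotide supply genes had lower means in GIC, by between -0.84 and -0.45 on the log2 scale. Rrm2, the S-phase subunit of ribonucleotide reductase, had 12.50 and 12.68 in non-GIC and 11.26 and 12.24 in GIC (-0.84, SE 0.35, limma adjusted p = 0.310). Thymidine kinase, Tk1, had 11.66 and 11.83 in non-GIC and 10.62 and 11.55 in GIC (-0.66). Thymidylate synthase, Tyms, had 7.32 and 7.18 in non-GIC and 6.42 and 6.95 in GIC (-0.57). The groups did not overlap in these 3 genes, with GIC replicate 1 again lower than replicate 2. A probe set annotated to both Tyms and its pseudogene Tyms-ps, not used as a member, was brighter, with 11.31 and 11.02 in non-GIC and 10.76 and 11.30 in GIC (-0.13), so the Tyms value rests on a dim probe set. Rrm1, the large reductase subunit, had -0.47 and Dut, which removes dUTP, had -0.45.

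Of the chromatin genes, Uhrf1, which guides maintenance DNA methylation, had 11.93 and 11.63 in non-GIC and 10.20 and 11.24 in GIC, which is 2.09-fold lower (SE 0.38 on the log2 scale, limma adjusted p = 0.259). Chaf1b, a subunit of the histone chaperone CAF-1, had 10.23 and 9.73 in non-GIC and 9.14 and 9.70 in GIC (log2 fold change -0.56). Slbp, which binds replication histone mRNAs, had 11.79 and 11.66 in non-GIC and 11.50 and 11.90 in GIC. Its log2 fold change of -0.02 had a 95% confidence interval from -0.53 to 0.49. Uhrf1 and Chaf1b did not overlap between the groups, and the GIC arrays of Slbp lay on either side of non-GIC.

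Among the role groups, the 4 G1/S regulators had the median log2 fold change smallest in size, -0.21. They included a pair of E2F genes with opposite signs, so this median does not mean that each gene differed little. E2f1, an activator of S-phase genes, had 9.72 and 9.56 in non-GIC and 9.98 and 10.31 in GIC (log2 fold change 0.50, SE 0.19, limma adjusted p = 0.284). E2f2, a close relative, had 7.01 and 6.75 in non-GIC and 6.14 and 6.43 in GIC (-0.59, SE 0.16, limma adjusted p = 0.177). Neither pair of groups overlapped, and in E2f2 the GIC arrays were the closest of all members (-0.29, replicate 1 minus replicate 2). Cyclin E2, Ccne2, had 10.15 and 10.14 in non-GIC, 10.27 on GIC replicate 2 and 9.34 on GIC replicate 1. Cyclin E1, Ccne1, had a log2 fold change of -0.08, with overlapping groups.

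The probe sets not used for a gene gave a check within the same arrays. Of 52 further probe sets of the members, 43 passed the level filter, and 42 of these had the sign of the probe set used. The exception was a probe set of Cdc45 (0.07 against -0.45). Among the 9 below the level, the further sets of Tyms (0.22, 0.20 and 0.09) and 1 of Pola2 (0.13) had the opposite sign. Those of Cdt1, Mcm6, Pola1, Rrm1 and Slbp had the same sign. GIC replicate 1 was the lowest array in 36 of the 43. For Cdt1 the further bright probe set had 11.98 and 11.65 in non-GIC and a log2 fold change of -1.76, for Mcm2 -1.48 and for Mcm5 -1.25, each larger than that of the brighter set. Over the 43, the difference was larger in size than that of the set used in 23 and smaller in 20. Among the smaller ones, further sets of Mcm5 had -0.80, Mcm3 -0.31, Mcm10 -0.19, Orc1 -0.11 and Pola2 -0.04. With the probe sets of each gene averaged, the member median was -0.46 over 42 members, as Tyms then did not pass the level filter. Both further E2f1 probe sets were higher in GIC (0.46 and 0.13), and the other E2f2 set was lower (-1.13). The probe sets of a gene share their RNA, so they are no replicates of the sublines.

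**Figure D3:**
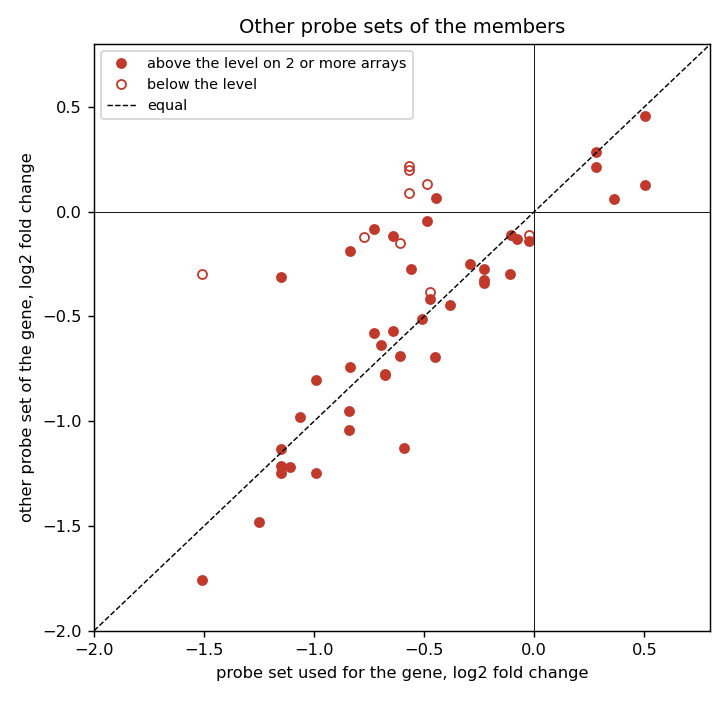
Log2 fold change, GIC minus non-GIC, of each of 52 further probe sets (y axis) against that of the probe set used for the same gene (x axis), filled where it passed the level filter. Of the 43 filled points, 42 lie in the quadrants where both have the same sign.

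The arrays of the same subline also differed from each other in these genes. GIC replicate 1 was below GIC replicate 2 in 43 of 43 members (49.1% of all genes), with a median difference of -0.70 and a range from -1.41 to -0.29. In non-GIC, replicate 1 was above replicate 2 in 37 members (51.9% of all genes), by a median of 0.21 and at most 0.66, for Mcm3. The 6 exceptions were Orc1, Gins3, Rpa1, Rpa2, Rrm2 and Tk1, with Rrm2 the farthest at -0.18. Of the 29 tested genes of mitosis and G2/M, 28 were likewise lower on GIC replicate 1 than on GIC replicate 2, with a median difference of -0.67. In non-GIC the mitotic genes went the other way, with replicate 1 above replicate 2 in 3 of 29 and a median of -0.18. Of the 9 CDK inhibitor and Rb family genes tested, 2 were lower on GIC replicate 1 than on GIC replicate 2. These differences between lists carry no test, since each side is 1 array.

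**Figure D4:**
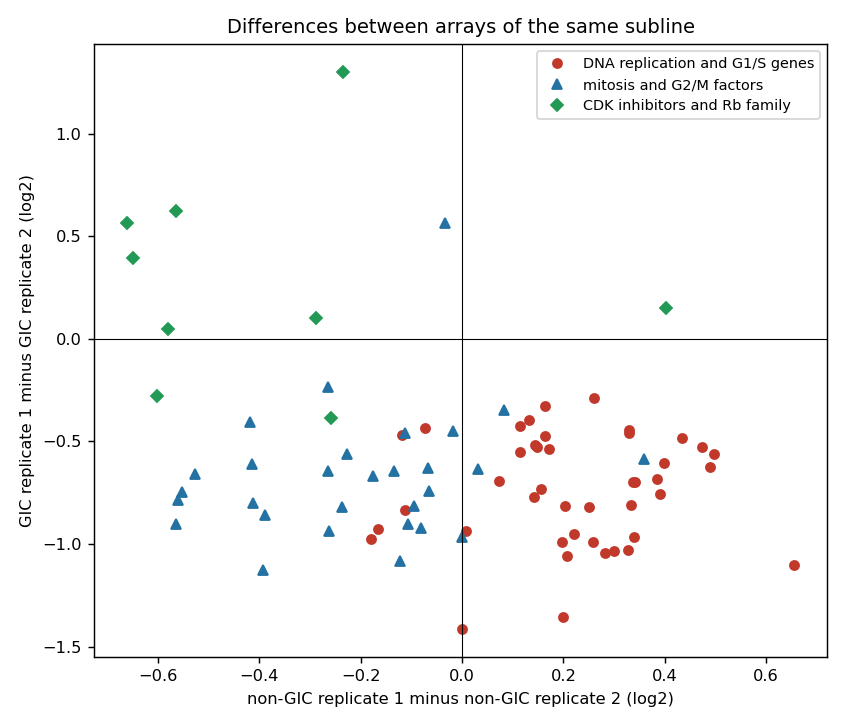
Difference between the arrays of a subline for members, mitotic genes and CDK inhibitor and Rb family genes, with non-GIC replicate 1 minus replicate 2 on the x axis and GIC replicate 1 minus replicate 2 on the y axis (log2). All 43 members lie below 0 on the y axis; on the x axis 37 members but only 3 of 29 mitotic genes lie above 0.

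Other genes of the pathway are given by list, and most lists, though not the CDK inhibitor and Rb family, had medians below 0. Of 34 further replication factors, 27 had a lower mean in GIC and 7 a higher one, with a median log2 fold change of -0.36 and none past the limma threshold (5 lower and 2 higher at an unadjusted p under 0.05). The smallest p-values belonged to Dscc1, a subunit of an alternative clamp loader, and Pole4, a small subunit of polymerase epsilon. Dscc1 had 9.69 and 9.61 in non-GIC and 7.99 and 8.59 in GIC (-1.36, limma adjusted p = 0.0894), and Pole4 had 10.68 and 10.73 in non-GIC and 9.24 and 9.83 in GIC (-1.17, adjusted p = 0.119). Of 20 other nucleotide and chromatin factors, 14 were lower and 6 higher (1 each at an unadjusted p under 0.05), with the replication repair factor Tonsl at -0.95 (limma adjusted p = 0.0931) and the dNTP hydrolase Samhd1 at 0.93 (0.126). Of 19 S-phase checkpoint and repair factors, 18 were lower (6 at an unadjusted p under 0.05) and 1, Atrip, was higher by under 0.01, with GIC replicate 1 the lowest array in all 19. The smallest p-values in that list belonged to Bard1 (-0.79, limma adjusted p = 0.202) and Rad51ap1 (-1.05, 0.229). None of these lists had a gene past the limma threshold.

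Among 22 other G1/S kinases, cyclins and E2F factors, 17 had a lower mean, 5 a higher one, and 0 passed limma (1 lower at an unadjusted p under 0.05). Cyclin D1, Ccnd1, which links growth factor signals to the cell cycle, had 12.95 and 12.96 in non-GIC and 11.90 and 12.61 in GIC (log2 fold change -0.70, limma adjusted p = 0.273). Cyclin D2, Ccnd2, had 8.23 and 12.06 in non-GIC, a gap wider than that between either GIC array, at 6.51 and 7.42, and non-GIC replicate 1. The CDK inhibitor and Rb family genes had a median of 0.23, with 6 higher and 3 lower of 9 tested and none past limma (1 higher at an unadjusted p under 0.05). Rbl1, an Rb relative that restrains E2F, had 9.84 and 10.10 in non-GIC and 10.49 and 10.88 in GIC (0.72, limma adjusted p = 0.203), and Rb1 had 8.54 and 8.77 in non-GIC and 10.48 and 9.18 in GIC (1.17, adjusted p = 0.288). The mitosis and G2/M genes had a median of -0.49, with 27 of 29 lower and none past limma (6 lower and 1 higher at an unadjusted p under 0.05); GIC replicate 1 was the lowest array in 27. Foxm1, a regulator of mitotic genes, had -1.17 (adjusted p = 0.126) and the phosphatase Cdc25b had -1.0 (adjusted p = 0.101). The medians of all these lists are a description, and differences between lists were not tested.

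**Figure D5:**
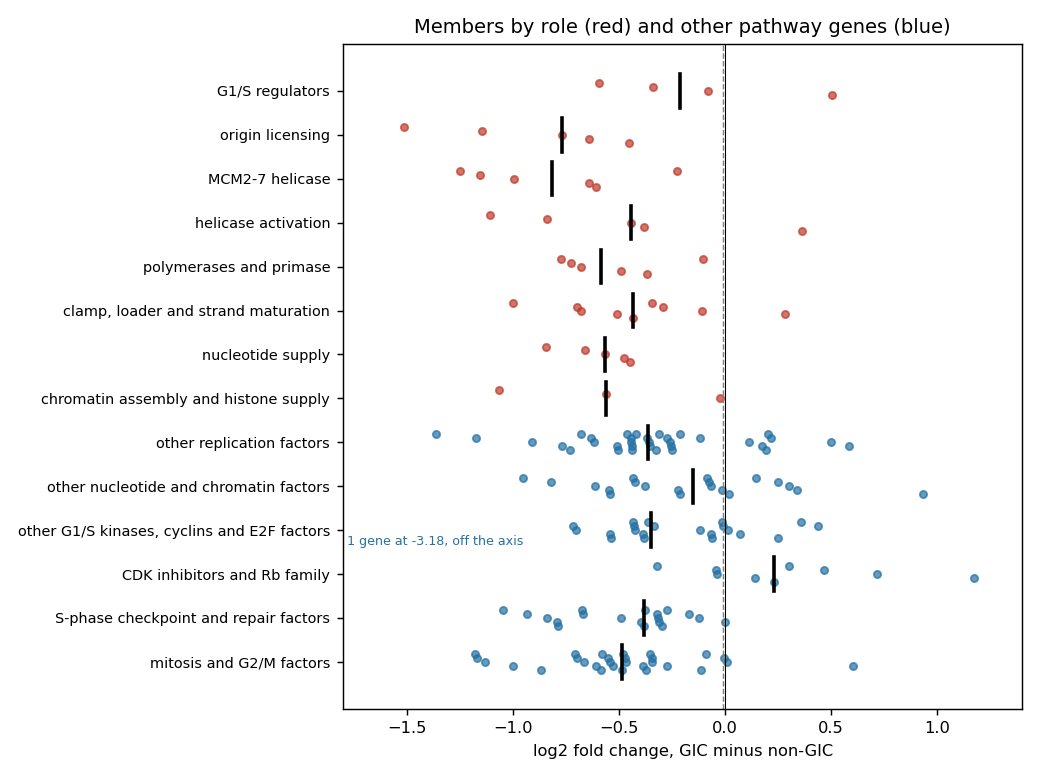
Log2 fold change, GIC minus non-GIC, of each tested gene (points) with the median of each list (black bar), members by role in red and other pathway lists in blue; the dashed line is the median over all genes tested, -0.01, and Ccnd2 at -3.18 is off the axis. All lists have medians below 0 except CDK inhibitors and Rb family, at 0.23.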

How the data were processed

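Biotin-labelled RNA of 4 samples, 2 of each subline, was hybridised to 1 array per sample, per the labels. The deposited values, 1 per probe set and array for 45101 probe sets, are on a log2 scale as read from their range (2.75 to 15.12). How the authors corrected background, summarised probes and normalized arrays is not given in the sources used here. Probe sets were named through the platform annotation, with symbols updated by Entrez identifier to GRCm38.p6 (34945 with 1 gene, 932 with several, 9160 with none and 64 controls). Probe sets with 1 gene were used, the brightest by mean per gene, and the level filter kept genes above the 40th percentile of the whole table (5.97) on 2 or more arrays.

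GIC minus non-GIC was fitted in R 4.3.3 by limma 3.58.1 (lmFit, then eBayes using an intensity trend, subline as sole term, 2 residual and 2.72 prior degrees of freedom), two-sided, with Benjamini-Hochberg adjustment over 13366 genes and a threshold of 0.05. SEs and intervals come from this fit. The fit was tested on simulated data. Promoters are RefSeq windows of GRCm38.p6. Plots used Python 3.11.15 and matplotlib 3.10.9. Alternatives covered scaling, the level filter, the choice of probe set, eBayes settings, a replicate block and leaving out each array.

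The members and lists were chosen with earlier results of these data known. All 44 members are named; per-array values are given for those past the threshold and the 3 with the largest absolute difference in each role, and, chosen after values were seen, for Orc1, Orc6, Mcm7, Gins1, Prim1 and Rfc2. Of the other pathway lists the 2 genes with the smallest p are named, since none passed; Atrip, the markers with values and the further probe sets were named after their values were seen.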

Additional observations from a re-analysis of the deposited data

How the results depend on the processing

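No member passed the threshold under the alternatives in scaling, filter, probe set, eBayes, block and arrays left out, except without GIC replicate 2, where Cdt1 did, and with the crossed block below. The count of called members lay between 0 and 1 when an array was left out, and the member median between -0.84 and -0.21. Members with groups that did not overlap, lower in GIC, numbered 25 to 40 when an array was left out. With fewer arrays this count is looser than with all of them, where 24.9% of all genes did not overlap. Without GIC replicate 1 it was 25, against 36.2% of all genes. Without GIC replicate 2 it was 40. The share over all genes was not computed there, but is at least the 30.7% in which GIC replicate 1 was the lowest of all 4 arrays. No such share was computed for the fits that left out a non-GIC array. The count of called genes over all genes was 12 without non-GIC replicate 1, 56 without non-GIC replicate 2, 77 without GIC replicate 1 and 188 without GIC replicate 2, and 198 to 261 under the scaling, filter, probe set and eBayes alternatives. A lone remaining array was taken to vary as much as the arrays of the other subline. Outside the fits that left out an array, 42 of 43 members kept their direction wherever they were tested, and Slbp turned to 0.021 with quantile normalization. In 32 members the direction was kept whichever array was left out. The others ranged from -0.32 to 0.16 (Ccne1), -0.81 to 0.13 (Ccne2), -1.35 to 0.064 (Orc1), -0.48 to 0.031 (Mcm7), -0.044 to 0.77 (Gins1), -0.59 to 0.38 (Prim1), -0.78 to 0.040 (Pole), -0.69 to 0.0013 (Rfc5), -0.34 to 0.12 (Fen1), -0.94 to 0.044 (Dut) and -0.22 to 0.17 (Slbp). Replicate numbers are shared between the sublines only as numbers: deviations of same-numbered arrays had a correlation of -0.32 over 13366 genes. With the replicate number as a block, 29 genes and 0 members were called, and with the numbers crossed, a block chosen after seeing the data, 685 genes and 2 members (Lig1 and Mcm3). The causes of these changes were not tested. Signal over background could not be judged, since no detection calls were used here.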
